A study of Mus musculus with 24 samples.

Results

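The Pramel genes encode relatives of PRAME, a protein built of leucine-rich repeats that serves as a substrate adaptor of cullin-RING ubiquitin ligases. Their autosomal members were defined as the protein-coding genes outside the sex chromosomes whose symbol starts with Pramel in the mm10 RefSeq gene table. There were 45 such genes among 21523 protein-coding genes with a window, and 22 of them could be measured. A gene was measured at the CpGs within 1000 bp of that end of the gene with more CpGs, if at least 5 CpGs and 10 calls were present in every library. A methylation level is the percentage of calls at those CpGs that were methylated. Members were picked by name and depth only, not by methylation level, but the family itself was chosen with earlier results of these data known.

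Mouse induced pluripotent stem (iPS) cells were profiled by oxidative bisulfite sequencing of the whole genome, which reads 5-methylcytosine apart from 5-hydroxymethylcytosine. The lines were the wild type and 2 clones, called N5 and N9, with a knock-in that expresses the microRNA miR-203 under doxycycline. All 3 lines were sampled at 4 stages: before doxycycline (t=0), on day 10, which was 5 days after a treatment of 5 days, on day 25, 20 days after it, and as embryoid bodies, which are aggregates of differentiating cells. The treatment text is given alike for all samples and the wild-type stages are labelled by doxycycline too, so the wild type controls for the drug without the knock-in. Embryoid bodies followed 7 days of differentiation in the series design and 10 days in the wild-type label. All iPS cells were grown over feeder cells. Each clone gave 1 library per stage and the wild type 1, so n = 2 clones and 1 wild-type library per stage, 12 libraries in all. No RNA was measured in this experiment, and the methylation values say nothing of Pramel transcripts.

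Pramel7 and Pramel6 are expressed in naive pluripotent cells and the inner cell mass. PRAMEL7 recruits a CUL2 ubiquitin ligase to UHRF1, the protein that brings the maintenance methyltransferase DNMT1 to newly replicated DNA, and its expression goes with low genome methylation. Other members are best known from oocytes, early embryos and testis, and most lie in tandem arrays of closely related copies.

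Promoter sequences show how the members differ in CpG content. The 250 bases upstream of the annotated start are printed for Pramel7 and Pramel6, the members with a known link to UHRF1, and for Pramel1 and Pramel13, the CpG-richest starts. They are from RefSeq on mm10 (GRCm38.p6), read 5′ to 3′ on the gene's strand, with every CG in capitals. The positions are chr2:87492419-87492668 (minus strand) for Pramel7, chr2:87506315-87506564 (plus strand) for Pramel6, chr4:143394191-143394440 (plus strand) for Pramel1 and chr4:144408465-144408714 (minus strand) for Pramel13.
Pramel7: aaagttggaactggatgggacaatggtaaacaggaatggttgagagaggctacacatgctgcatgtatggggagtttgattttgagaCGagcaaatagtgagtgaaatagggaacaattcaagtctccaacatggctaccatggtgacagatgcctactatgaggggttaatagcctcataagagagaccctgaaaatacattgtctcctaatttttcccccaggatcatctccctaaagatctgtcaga
Pramel6: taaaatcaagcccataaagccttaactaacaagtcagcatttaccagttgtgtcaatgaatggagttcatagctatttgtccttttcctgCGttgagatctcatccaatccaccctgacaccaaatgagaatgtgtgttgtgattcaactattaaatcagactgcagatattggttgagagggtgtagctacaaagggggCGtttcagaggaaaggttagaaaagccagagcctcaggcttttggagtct
Pramel1: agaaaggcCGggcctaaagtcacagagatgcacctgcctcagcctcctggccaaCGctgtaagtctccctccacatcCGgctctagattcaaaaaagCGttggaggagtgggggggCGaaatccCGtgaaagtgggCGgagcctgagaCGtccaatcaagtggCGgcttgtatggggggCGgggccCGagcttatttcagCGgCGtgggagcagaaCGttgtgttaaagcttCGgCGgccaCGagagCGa
Pramel13: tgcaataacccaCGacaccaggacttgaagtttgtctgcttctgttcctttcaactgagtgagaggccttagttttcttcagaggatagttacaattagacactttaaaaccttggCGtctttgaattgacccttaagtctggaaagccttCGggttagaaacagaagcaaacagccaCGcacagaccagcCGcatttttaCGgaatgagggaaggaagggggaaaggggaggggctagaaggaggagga
These stretches hold 1 CG in Pramel7, 2 in Pramel6, 18 in Pramel1 and 6 in Pramel13. A promoter sequence of 300 bases, the same stretch plus the first 50 transcribed, was at hand for 36 members and 27025 genes. The letters CG, which read the same on both strands, occurred 3 times or fewer in 33 of the 36 members and in 31.9% of all promoters. The median was 1 CG in the members against 7 in all promoters. Pramel1 had 20 CG in 300 bases and Pramel13 had 7. Their best alignments to another member had 11.3% and 16.3% identical bases, and those of the CpG-poor Pramel40, Pramel22 and Pramel21 were as low, with 12.3%, 14.0% and 17.7%. Matches were counted over 300 bases with free end gaps. Values this low mean that only part of the sequence was aligned, and they do not measure how far copies diverged.

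The members fell into 6 places in the genome, and depth differed greatly between them. Pramel7 and Pramel6 lie side by side on chromosome 2 and both were measured. On chromosome 4, Pramel32 stands alone, Pramel17, Pramel18 and Pramel19 form a group of 3 (chr4:101834969-101943183), and 20 members form a large array (chr4:143394441-144408467), of which 16 were measured. The longest array, 2254 kb of chromosome 5 (chr5:93481827-95736173), holds 18 members and none was measured, and neither was the single member of chromosome 12, Pramel51. In the chromosome 5 array 12.0% of CpGs had any call, at a mean coverage of 0.249 calls per CpG and library, against 62.7% and 2.49 in the large chromosome 4 array and 98.5% and 6.09 at the chromosome 2 pair. No CpG in the window had a call in any library for 13 of the 18 chromosome 5 members and for Pramel4.

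**Figure D1:**
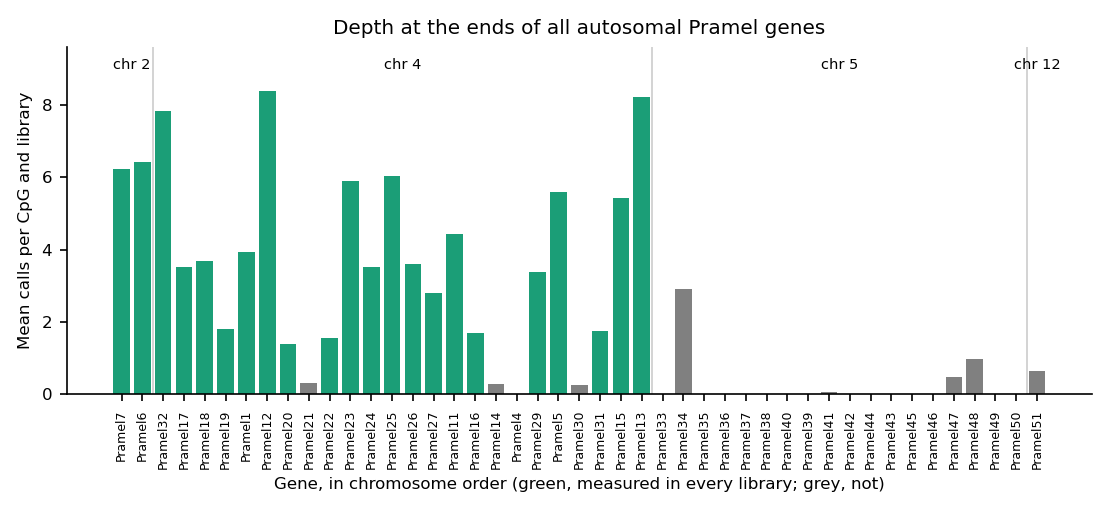
Mean calls per CpG and library (y axis) in the window of each of the 45 autosomal Pramel genes (x axis, in chromosome order), green where measured in every library and grey where not. Bars of the chromosome 5 array are at or near 0, apart from Pramel34 at 2.92.

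Many copies in the unmeasured array had nearly identical promoters. The best match of a chromosome 5 promoter to that of another member had a median identity of 99.5% over 12 promoters. Pramel37 and Pramel50 had the same 300 bases, and the lowest were 12.3% at Pramel40 and 63.0% at Pramel45. The median was 83.7% over 19 promoters of the large chromosome 4 array. Over all members it was 98.5% for the 16 promoters of unmeasured genes and 77.2% for the 20 of measured genes. Reads within the 300 bases shared by Pramel37 and Pramel50 cannot be placed at 1 of them by those bases alone. No source used here says how the authors treated reads with several matches. Identity was taken over promoters, not over the windows, and the windows of Pramel40 and Pramel45 had no call although their promoters had no close match among the members. Whether duplication set the depth was not tested. The values describe members whose promoters had the lower median identity. By depth, Pramel34 with 7 calls in its shallowest library was just outside the threshold, and Pramel22 with 10, Pramel29 with 11 and Pramel20 with 12 were just inside. The windows of the 22 measured members did not overlap.

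Most measured members were highly methylated in the clones at t=0, with a median of 73.8% over the 22 against 10.1% over all 20320 ends tested. The highest clone means were 89.6 ± 14.7% (SD, n = 2) at Pramel29, 81.4 ± 5.85% at Pramel17 and 81.1 ± 0.632% at Pramel5. These 3 do not differ beyond the spread between clones. The lowest were 8.15 ± 2.21% at Pramel12, 32.3 ± 7.45% at Pramel13 and 44.1 ± 7.95% at Pramel1, which are also the 3 members with the most CpGs, 57, 32 and 66. At the other extreme Pramel29 had 6 CpGs and Pramel23 and Pramel26 had 8 each. The 18 members with 5 to 19 CpGs had a median of 75.1%, close to the 72.6% of the 2820 autosomal ends with as few CpGs.

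**Figure D2:**
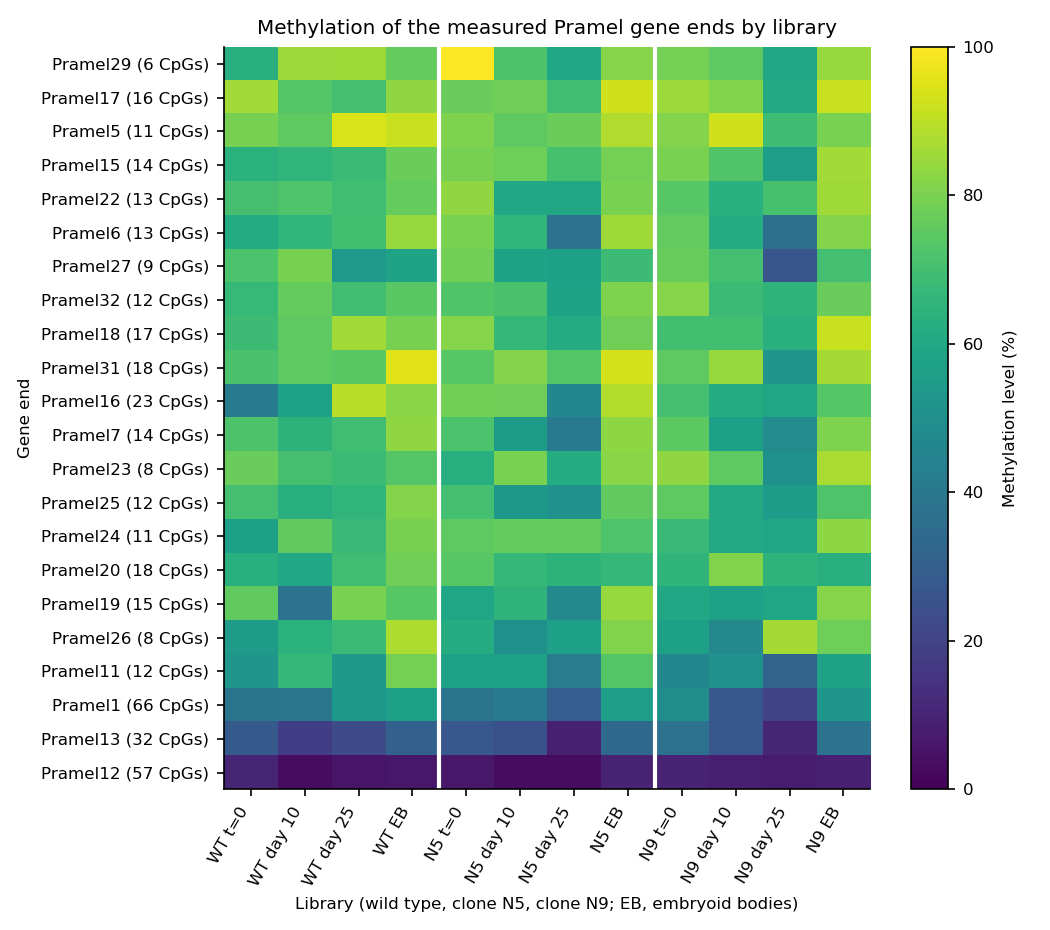
Methylation level (colour, %) of the 22 measured Pramel ends (rows, ordered by the clone mean at t=0, with the number of CpGs) in the 12 libraries (columns). The day 25 columns of both clones are darker than their t=0 columns in 20 of the 22 rows, and Pramel12 stays between 3.18% and 10.4% in every library.

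The first question was whether the family's methylation differed between t=0 and day 10, soon after miR-203 induction ended. The clone mean was lower at day 10 in 16 of the 22 members and in 14754 of all 20320 ends, a similar share. Both clones were lower in 13 members. By the quasi-likelihood F test of edgeR, fitted to methylated and unmethylated counts of all 20320 ends with Benjamini-Hochberg adjustment at 0.05, 0 of 22 passed, where 0.197% of all ends did. Unadjusted p was under 0.05 at 3 members, and limma on logit values passed 0 with 5 under 0.05 unadjusted. Pramel7 had the lowest p of the 22, going from 71.8% (N5) and 74.8% (N9) to 54.4% and 56.3%, and its adjusted p by edgeR was 0.253.

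By day 25, 9 of the 22 members had fallen in the clones and none had risen. They were Pramel7, Pramel6, Pramel32, Pramel17, Pramel1, Pramel25, Pramel27, Pramel15 and Pramel13, and their clone means changed by -15.9 to -40.4 percentage points. Both clones were lower than at t=0 in 20 of 22 members and both higher in 0, while the wild type was lower in 8 and higher in 14. The clone mean was lower in 21 members and in 19316 of all 20320 ends. Over all ends 40.2% fell, so the share of members called, 40.9%, is near the background. The median change of the members was -16.05 points. It was -3.90 points over all ends, which are mostly CpG-rich and little methylated, and -15.54 over the 2820 autosomal ends with 5 to 19 CpGs, of which 40.7% were called.

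Pramel6 moved most of the 9. In N5 its level began at 80.0%, was 65.6% on day 10 and 38.3% on day 25, and ended at 85.7% in embryoid bodies. In N9 the same stages gave 75.9%, 61.8%, 36.7% and 81.5%. In the wild type they gave 61.5%, 66.0%, 69.6% and 84.5%. Both clones at day 25 were below all other libraries, and the wild type at t=0 was lower than either clone. The window holds 13 CpGs around the transcription start (chr2:87505565-87507565) with 58 to 128 calls per library. The change of -40.4 points from 78.0 ± 2.90% to 37.5 ± 1.09% (n = 2) passed the edgeR test with adjusted p = 2.68e-04.

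Pramel7, its neighbour and the member for which binding to UHRF1 is known, followed the same course. N5 had 71.8%, 54.4%, 40.7% and 82.8% at the 4 stages in order. N9 had 74.8%, 56.3%, 48.4% and 80.5%. The wild type had 72.0%, 64.8%, 69.2% and 83.5%. Before doxycycline the 3 lines lay within 3 points, and at day 25 both clones were below every other library. Clone means were 73.3 ± 2.10% at t=0 and 44.5 ± 5.43% at day 25, with adjusted p = 0.00131 by edgeR. This window, with 14 CpGs and 39 to 150 calls per library, is at the end of the transcript (chr2:87488088-87490088). Around the start of Pramel7, with 12 CpGs and at least 67 calls, N5 went from 70.8% before doxycycline to 55.4% on day 25 and 91.7% in embryoid bodies, and N9 had 76.6%, 52.3% and 85.0%. The wild type there had 64.2%, 81.4% and 82.8%. At day 10 the clones were at 70.8% and 78.9% around the start, near their t=0 levels, while the end was at 54.4% and 56.3%, so start and end differed at that stage.

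**Figure D3:**
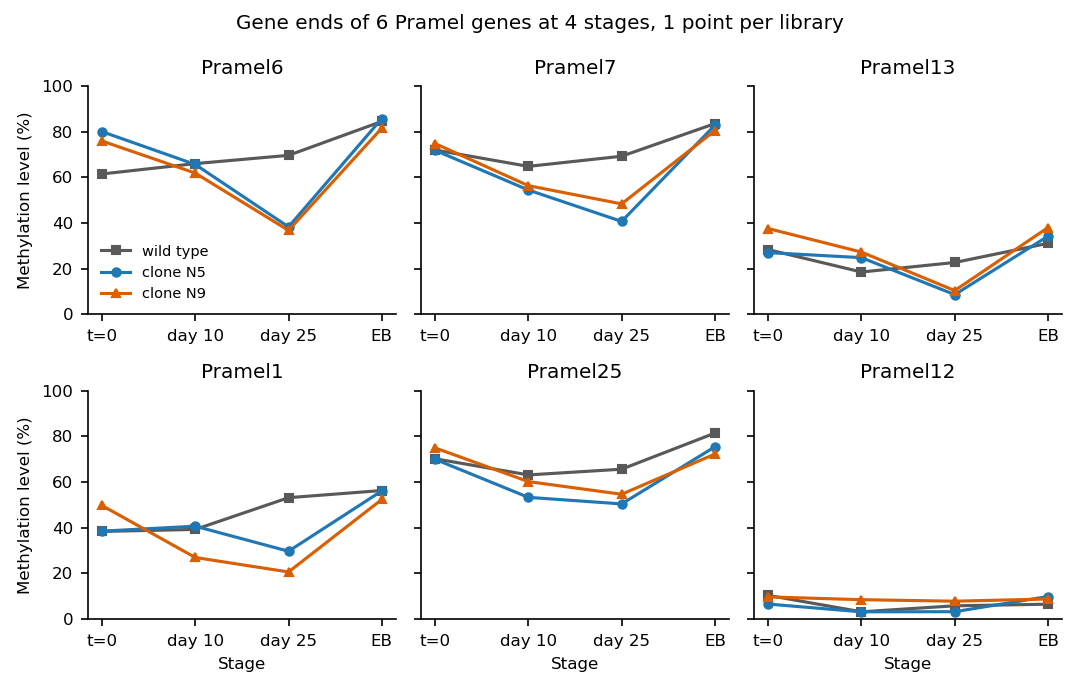
Methylation level (y axis, %) of 6 Pramel ends at 4 stages (x axis), 1 point per library for the wild type (grey squares), N5 (blue circles) and N9 (orange triangles). At Pramel6 and Pramel13 both clones at day 25 lie below every other library, and Pramel12 stays near the bottom throughout.

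Pramel13 and Pramel1, which have the CpG-richest starts of the 36 members with a promoter sequence, also fell. Pramel13 went from 27.0% (N5) and 37.5% (N9) before doxycycline through 24.8% and 27.2% at day 10 to 8.60% and 10.4% at day 25, and had 34.2% and 38.0% in embryoid bodies. The wild type had 28.3%, 18.5%, 22.7% and 31.1%. Day 25 was the lowest stage of each clone, and the fall had adjusted p = 2.76e-04 by edgeR. Pramel1, a gene known from testis, went from 38.5% and 49.8% at t=0 through 40.7% and 27.0% at day 10 to 29.7% and 20.6% at day 25, then to 56.2% and 52.4%. Its wild-type levels were 38.4%, 39.3%, 53.2% and 56.3%, and the adjusted p of its fall by edgeR was 0.0120. The 2 clones of Pramel1 differed at day 10 by more than its change in N5, and without N9 at t=0 or N9 at day 25 its adjusted p was 0.133 or 0.114.

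The same 2 genes could be read within the printed sequences. In the 250 bases before the Pramel1 start, 18 CpGs had 30 to 135 calls per library. Before doxycycline they were 23.0% methylated in N5 (95% Wilson interval 16.7 to 30.7%) and 29.2% in N9 (19.6 to 41.2%), and at day 25 they were at 7.14% (3.66 to 13.5%) and 8.14% (4.00 to 15.9%). In embryoid bodies they were at 37.8% and 32.2%, and in the wild type between 19.5% and 31.1% over the 4 stages. Within this stretch the day 25 intervals of both clones lie below their t=0 intervals, and the wild-type embryoid bodies were lower than those of both clones. In the 6 CpGs before the Pramel13 start, N5 had 11.3% at t=0 and 7.39% at day 25, and N9 had 19.4% and 2.70%. There the intervals of N5 overlap (7.11 to 17.6% and 4.78 to 11.3%) and those of N9 do not (12.9 to 28.1% and 1.06 to 6.74%). The single CpG of the Pramel7 stretch and the pair in Pramel6 had too few calls for a level per library. Intervals cover counting error only and take every call as independent. A read can cover several of these neighbouring CpGs, so the intervals can be too narrow. Whether they overlap is not a test of change.

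Bins of 250 bp along the windows showed where in the CpG-rich ends the clones differed. At Pramel1 the clones' pooled level was lowest just before the start, at 25.0% of 200 calls at t=0 and 7.58% of 198 calls at day 25. At Pramel13 the bin from 500 to 750 bp before the start had 65.5% of 84 calls methylated at t=0, 12.4% of 113 on day 25, then 43.4% of 76 in embryoid bodies. At Pramel12 the 3 bins furthest inside the gene held between 0 and 2.88% at these stages. The level of Pramel12 stood between 3.18% and 10.4% over the 12 libraries, and its change to day 25 of -2.61 points did not pass (adjusted p = 0.214 by edgeR).

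**Figure D4:**
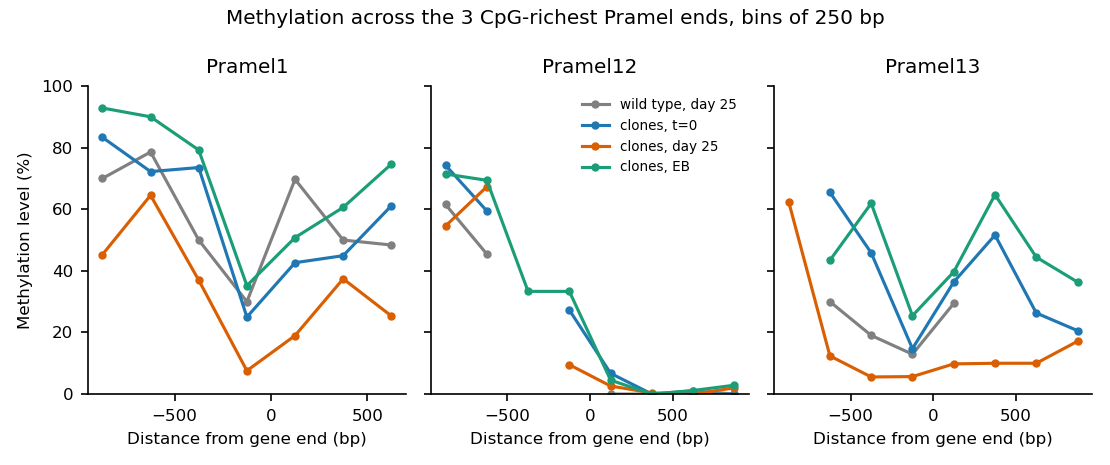
Methylation level (y axis, %) in bins of 250 bp by distance from the gene end (x axis, positive into the gene) for the 3 CpG-richest members, with calls of both clones pooled. Bins with under 10 calls are left out; the clones' day 25 line is the lowest of the 4 across most of Pramel1 and Pramel13, and the inner part of Pramel12 is near 0 in all.

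The other members called at day 25 had fewer calls. Pramel25 went from 70.0% and 75.0% to 50.5% and 54.7% (adjusted p = 0.0218 by edgeR). Pramel27 went from 78.6% in N5 and 76.9% in N9 to 56.2% and 26.7%, and the last value rests on 15 calls (95% Wilson interval 10.9 to 52.0%). Pramel32, Pramel17 and Pramel15 fell by 15.9, 16.2 and 16.5 points with adjusted p by edgeR of 0.0294, 0.0354 and 0.0450. Pramel5, one of the always-described members, had 80.6% and 81.5% at t=0 and 77.6% and 69.0% at day 25 and did not pass (0.429). Pramel26 was the only member with a higher clone mean at day 25, by 12.2 points; it was singled out after its values were seen, and N9 had 86.7% there on 15 calls and N5 56.4% on 39. Called members were deeper, with a median of 50 calls in the shallowest library against 20 in members not called, and had larger median changes of -19.9 against -11.8 points. Whether depth or size of change set the calls was not tested.

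Which libraries entered mattered to this count. It was 4 without N9 at t=0, 4 without N9 at day 25, and 4 without the 3 N5 libraries that the titles place on another flow cell, where the share of all ends called dropped too, to 21.5%, 21.6% and 10.1%. Pramel6 and Pramel13 passed in each of these. The adjusted p of Pramel7 by edgeR without the other flow cell was 0.0511. Changes from t=0 to day 25 lie within 1 flow cell in each clone. Removing each library's median log2 odds over all ends, which changed by -0.84 from t=0 to day 25 in the clones and 0.02 in the wild type, left 0 of 22 members and 0% of all ends called by limma, with 6 members under 0.05 unadjusted. The uncentred limma fit called 6 of 22. After centring 15 of 22 member estimates were lower and 7 higher, so a change relative to all ends was not detected.

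**Figure D5:**
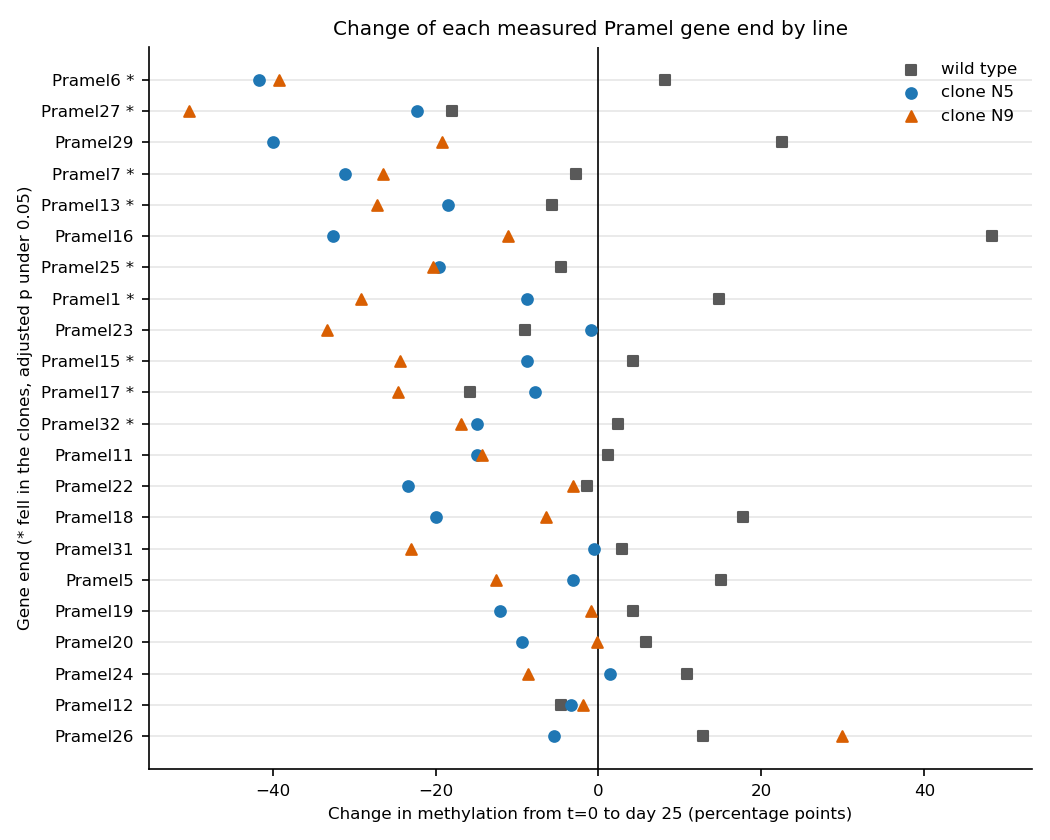
Change in methylation from t=0 to day 25 (x axis, percentage points) of the 22 measured Pramel ends (y axis), 1 point per line, with * at those called in the clones. Both clones lie left of 0 in 20 rows, while wild-type points lie on both sides, from -17.9 to 48.3 points.

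Coverage of chromosome Y and the ends of feeder markers were read as possible signs of other cells. The first stretch of chromosome Y had 0.0370 and 0.0386 of the coverage of chromosome 5 in the clones before doxycycline, 0.0122 and 0.0103 at day 25, and at most 0.0018 in the 8 other libraries. Of the ends of 14 fibroblast and feeder markers 3 fell from t=0 to day 25 (Thy1, Twist2 and S100a4), where 40.2% of all ends fell. The median change of the 14 was -1.07 points. From day 25 to embryoid bodies 12 of the 14 rose in the clones, where 74.6% of all ends rose. Neither the presence of other cells nor their part in the result was tested.

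In embryoid bodies the family was methylated again. From day 25, 14 of 22 members rose and none fell, where 74.6% of all ends rose. They were Pramel7, Pramel6, Pramel32, Pramel17, Pramel18, Pramel19, Pramel1, Pramel23, Pramel25, Pramel11, Pramel16, Pramel31, Pramel15 and Pramel13. Both clones were higher in 19 of 22 members. The clone mean was higher in 21 members and in 19982 of all 20320 ends. The wild type was higher in 17 and lower in 5, with a median change of 7.68 points. Rises ran from 17.5 points at Pramel32 to 46.1 at Pramel6. The member median over all 22 was 24.9 points, against 23.4 over the autosomal ends with 5 to 19 CpGs. Of those ends 81.2% were called as risen, against 61.1% of the 18 Pramel ends with as few CpGs. Pramel6 (adjusted p = 1.89e-06 by edgeR) and Pramel7 (37.1 points, 1.30e-05) rose most. Pramel19 followed with 30.1 points, from 47.2% and 59.1% to 84.6% and 81.8%, on 22 to 36 calls (adjusted p = 0.00895). Pramel1 rose by 29.1 points (1.00e-04) and Pramel23 by 28.8 points (0.00310). All 8 members that did not pass had a shallowest library under 30 calls, apart from Pramel12, whose change was 3.80 points (adjusted p = 0.0615 by edgeR). Pramel16, Pramel19 and Pramel31, with 19, 20 and 22 calls in theirs, passed all the same. Whether depth set these calls was not tested. With libraries centred, limma called 0 here too, with 5 under 0.05 unadjusted and the Pramel32 estimate turned to a fall, against 16 uncentred. The median log2 odds of all ends moved by 1.30 in the clones and by 0.44 in the wild type.

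Embryoid bodies did not differ detectably from t=0. The clone mean was higher in 19 of 22 members, by a median of 6.10 points, and in 16652 of all 20320 ends. In edgeR 0 members passed, where 8.96% of all ends did. By unadjusted p 2 members were under 0.05 with edgeR and 4 with limma, which also passed 0. Pramel19 had the largest difference, 23.6 points (adjusted p = 0.129 by edgeR).

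Next the clones were set against the wild type at each stage. Before doxycycline 0 of 22 members differed by edgeR, with 0.536% of all ends called, and 3 members were under 0.05 unadjusted. Pramel6 was among these, with the clones 16.5 points above the wild type (adjusted p = 0.476). At day 10 again 0 differed, with 0.0148% of ends called and 0 members under 0.05 unadjusted. Limma passed 0 at both stages, with 3 and 1 members under 0.05 unadjusted.

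At day 25 the clones were below the wild type at Pramel6, Pramel1 and Pramel13. These 3 members of 22 passed, where 10.2% of all ends fell. Pramel6 differed by -32.1 points (37.5 ± 1.09% against 69.6%, adjusted p = 0.0118 by edgeR). Pramel1 differed by -28.0 points (25.2 ± 6.42% against 53.2%, 0.0149) and Pramel13 by -13.2 points (9.48 ± 1.26% against 22.7%, 0.0353). At Pramel7 the difference of -24.7 points had an adjusted p of 0.0775. The clone mean was lower than the wild type in 20 of 22 members. It was also lower in 17306 of all 20320 ends and in 2542 of the 2820 autosomal ends with 5 to 19 CpGs, so this count is not particular to the family. The fit takes the spread of the clones for that of the single wild-type library, and 1 member passed without N9 at day 25. With the flow cell as a term beside the clone block 0 passed, and limma passed 0 with 8 under 0.05 unadjusted.

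In embryoid bodies 0 of 22 members differed between clones and wild type by edgeR, where 0.0689% of all ends did, with 0 under 0.05 unadjusted. Limma passed 0 with 1 under 0.05 unadjusted. The members split evenly, 11 lower and 11 higher in the clones, where 6437 of all ends were lower and 13880 higher.

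Whether clones and wild type changed unequally was tested by an interaction of line and stage. From t=0 to day 10, 0 of 22 members passed in edgeR, with 0.0344% of all ends called and 1 member under 0.05 unadjusted. From t=0 to day 25, 2 members passed, Pramel6 and Pramel16, where 2.11% of all ends fell. At Pramel6 the change of the clones minus that of the wild type was -48.6 points (adjusted p = 0.0304 by edgeR). At Pramel16 the difference was -70.1 points (0.0391), and the wild type rose there from 41.2% of 51 calls to 89.5% of 19 calls while the clone mean went from 74.4 ± 6.17% to 52.5 ± 9.03%. The wild-type change is thus the larger part at Pramel16. The count was 0 without N5 at t=0, 0 without N5 at day 25, 0 without N9 at day 25 and 1 without N9 at t=0. From day 25 to embryoid bodies 0 of 22 members passed, where 6.09% of all ends did, and 4 were under 0.05 unadjusted. Limma passed 0 in all 3 of these, with 2, 7 and 5 members under 0.05 unadjusted.

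Pooled over the 22 ends, the clones had 49.9 ± 4.93% before doxycycline, 42.8 ± 1.36% on day 10, 30.9 ± 1.79% on day 25 and, as embryoid bodies, 52.4 ± 2.78% (SD, n = 2). The wild type had 46.3%, 42.7%, 49.3% and 52.1%. From t=0 to day 25 N5 changed by -16.8 points and N9 by -21.2, while the wild type changed by 2.97. From day 25 to embryoid bodies the clones gained 20.8 and 22.2 points and the wild type 2.79. These sums rest on 1374 to 2988 calls per library and weigh the CpG-rich ends of Pramel1, Pramel12 and Pramel13 most. Their weights differ between libraries. In the wild type Pramel12 held 275 of 1374 calls on day 25, but 536 of 2015 in its embryoid bodies. With every end weighed alike, mean levels in the order t=0, day 25, embryoid bodies were 67.8%, 52.4% and 74.3% in N5. N9 had 67.1%, 50.6% and 73.3%, and the wild type 61.1%, 66.1% and 73.2%. The rise of the wild type from day 25 is thus smaller in the pooled sums than in these means. With 2 libraries against 2 the smallest p of an exact permutation test is 1 in 3, so none is given.

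The pattern was also seen at the opposite gene end, and other windows were read as well. Over the whole gene, 26 of 45 members could be measured, and both clones were lower at day 25 than at t=0 in 24 and higher again in embryoid bodies in 26. At the opposite gene end 16 of 18 were lower in both clones, and at annotated starts 14 of 18. Many annotated starts, such as those of Pramel6 and Pramel1, are the chosen windows themselves. The whole gene holds part of each chosen window, so only the opposite end is a separate set of CpGs. Over all chosen ends tested, the clone mean was lower at day 25 in 19316 of 20320, so these counts are not particular to the family. Among genes measured only over their whole length, Pramel34 in the chromosome 5 array had 72.5% and 74.4% at t=0 and 62.0% and 65.4% at day 25, on at least 381 calls per library. Pramel4, a member reported from pluripotent cells, had 58.8% (N5) and 82.4% (N9) before doxycycline, and its clone mean on day 25 was 45.5 ± 6.43%, on at least 16 calls.

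The family was compared with other clustered gene families only by description, as shares called from t=0 to day 25. Of 995 olfactory receptor (Olfr) ends 35.2% were called with a median of -14.6 points, and of 187 vomeronasal receptor (Vmn) ends 22.5% with -13.9 points. Of the oogenesins, PRAME-like genes of the oocyte, Oog2, Oog3 and Oog4 were measured and Oog2 fell, from 85.2% and 78.1% to 45.2% and 47.1% (adjusted p = 0.0140 by edgeR). Of 15 measured genes of other oocyte and early-embryo families 8 fell, among them Nlrp14, Oas1d and Usp17le, with a median of -16.16 points. Beside these stand 40.9% and -16.05 points for the 22 Pramel ends, and 40.2% and -3.90 points for all ends. No difference between families was tested.

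Of the genes through which PRAMEL7 acts, Uhrf1 and Cul2 had CpG-rich, little methylated ends. Uhrf1 was between 1.35% and 7.87% in every library, and its change in the clones of -3.11 points passed (adjusted p = 0.0234 by edgeR), with both clones lower at day 25. Cul2 was between 1.35% and 5.59% and did not pass (0.0723). Dnmt1, whose densest end was well methylated, went from 74.1% and 79.9% to 60.3% and 53.2% (0.00514), with 85.3% in the wild type at day 25. In the list of 12 partners and maintenance genes 4 fell, Lig1, Dnmt1, Usp7 and Uhrf1, and 8 rose again in embryoid bodies. Of 7 genes of de novo methylation and demethylation 3 fell, Dnmt3l, Dnmt3a and Tet1. Over all ends 40.2% fell by day 25 and 74.6% rose in embryoid bodies, so neither list is set apart by its counts.

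In the LIF-STAT3 and naive pluripotency list, the pathway upstream of Pramel6 and Pramel7, 7 of 17 ends fell by day 25 and 13 rose in embryoid bodies. Nanog, a core pluripotency factor, went from 10.8% and 10.0% to 3.04% and 0.785% (adjusted p = 9.50e-04 by edgeR), Zfp42 from 14.3% and 11.2% to 3.43% and 5.67% (0.00299), and Tfcp2l1 changed by -3.03 points (0.00838). In the list of 12 germline genes that methylation keeps silent 10 fell, led by Sycp1, Tdrd9 and Rhox1, with a median of -16.16 points. The falls read against the 40.2% of all ends that fell in the same comparison, and the rises against the 74.6% that rose in embryoid bodies.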

How the data were processed

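Whole-genome oxidative bisulfite libraries of 12 samples (24 deposited samples, 2 lanes each) were analysed. Per the submitters' processing notes reads were handled with BWA and Picard 1.91 on mm10; neither the methylation caller nor the treatment of reads with several matches is given in the sources used here. The authors deposited, per the file headers, whole-number counts of methylated and of total calls for 21875444 CpGs, with no normalization. The wild type has 2 columns of counts per stage, which were summed to 1 library because the titles of a stage share an index and flow cell, though the header does not name lanes. Libraries held 102896335 to 191210205 calls, a mean coverage of 4.70 to 8.74 per CpG, so levels of CpG-poor ends rest on few calls. Per the titles, all N5 libraries but that of day 10 shared a flow cell other than that of the remaining 9 libraries.

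Ends of all protein-coding genes in the mm10 RefSeq table (CpG rows within 1000 bp, at least 5 CpGs, 10 or more calls per library, chromosome Y and the first 3000000 bp of each chromosome left out) gave 20320 windows. They were fitted together with edgeR 4.0.16 (R 4.3.3; quasi-likelihood F test, 8 groups, 4 residual degrees of freedom) over 11 comparisons, with adjustment by Benjamini and Hochberg within each at 0.05. limma 3.58.1 on log2 odds with an offset of 0.5 was an alternative. The fit was tested on simulated data. Clones N5 and N9 are the replicates. A clone recurs at every stage, but the main fit had no clone block, so its p-values are not paired. The replicate block that pairs the libraries of a clone was an alternative. P-values measure the spread between 2 clones of 1 culture each. The family, the gene lists and the rule for named genes (set members always named, then the largest called changes, extreme levels and CpG numbers, and the lowest p in each list) were chosen with earlier results of these data known; other genes were named after their values were seen. All table columns were used. Promoter sequences are from RefSeq; 36 members had one. Identity is matches over 300 bases in a global alignment with free end gaps.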

Additional observations from a re-analysis of the deposited data

Results flagged for a closer look

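Pramel6 and Pramel16 changed differently in the clones and in the wild type between t=0 and day 25, by the test of the difference itself in edgeR. At Pramel6 the change of the clones minus that of the wild type was -48.6 percentage points (adjusted p = 0.0304), lower in both clones and higher in the wild type. At Pramel16 it was -70.1 points (adjusted p = 0.0391), also lower in both clones, with 19 calls in the wild type at day 25. Limma on logit values gave an adjusted p of 0.152 for each. No group had the 4 libraries that a search for single outlying libraries needs.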

How the results depend on the processing

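Counts of called members stayed at 0 under every alternative run for day 10 against t=0, for clones against wild type at every stage but day 25, and for the difference in change to day 10. With the replicate block that pairs the libraries of a clone, 9 members fell by day 25, 15 rose in embryoid bodies, 3 were below the wild type at day 25 and 2 differed in change; the block changed no other count. Adding a flow cell term to the block gave 0 for clones against wild type at day 25. Windows of 500 bp measured 8 members and called 2 from t=0 to day 25, 7 from day 25 to embryoid bodies, 1 against the wild type at day 25 and 0 for the difference in change to day 25. Windows of 2000 bp measured 25 and called 14, 22, 5 and 4, with 1 for embryoid bodies against t=0 and 2 for the difference in change from day 25. The other gene end gave 1 for embryoid bodies against t=0, 1 against the wild type at day 25, and 1 for the difference in change to day 25 and 1 from day 25; annotated starts gave 1 for embryoid bodies against t=0 and 1 for the difference to day 25. A minimum of 30 calls gave 1 for the difference to day 25, and leaving out windows of unusual coverage gave 1 there and 7 rises in embryoid bodies. Wild-type columns as 2 libraries gave 1 for the difference from day 25. Limma gave 0 against the wild type at day 25 and 0 for the difference to day 25; with centred libraries it gave 0 in all comparisons, and the Pramel32 change to embryoid bodies reversed (adjusted p = 0.925). Without the other flow cell, a choice made after seeing the data, 4 members fell by day 25 and 0 differed in change. Leaving out 1 library gave 4 to 9 falls by day 25, 11 to 15 rises in embryoid bodies, 1 to 3 against the wild type at day 25 and 0 to 3 for the difference to day 25. The rise of the pooled level in embryoid bodies, 21.5 points, was 28.3 at the other gene end, 27.5 at annotated starts and 17.5 without windows of unusual coverage. The cause of these shifts was not tested, apart from the fewer members measured. Of the 45 members, 23 missed the minimum of CpGs or calls and have no value.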
